A study of Mus musculus with 2 samples.

Results

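The antioxidant genes described here are 37 genes chosen by name, with earlier results of these data known. They encode peroxiredoxins, thioredoxins and their reductases, glutathione peroxidases, superoxide dismutases, catalase, the enzymes that make, reduce and use glutathione, glutaredoxins, and the NRF2 and KEAP1 regulators. All 37 were among the 23284 gene symbols measured by RNA-seq in leukemic stem cells (LSCs) from mice with a chronic myeloid leukemia (CML) driven by BCR-ABL. There was 1 library of wild type (WT) LSCs and 1 library of STAP-1 KO LSCs (KO LSCs), from mice with a targeted disruption of the Stap1 gene, which encodes an adaptor protein. Donor cells of both groups had the C57BL/6J background and were transduced with a retrovirus for p210 BCR-ABL and green fluorescent protein (GFP), and they were transplanted into lethally irradiated C57BL/6SJL recipients together with normal marrow. The mice of the study were 8 to 14 weeks old, and GFP+ CD45.2+ LSK cells (without lineage markers, with Sca-1 and c-Kit) were sorted in the second week after transplantation. How many mice were pooled for a library is not given in the sources used here. With 1 library per genotype no difference has a replicate check, and no test of the genotype is given.

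Values are FPKM, in which the reads of a gene are divided by its transcript length and by the size of the library, so that levels can be compared between genes. Differences are given as the ratio of the libraries or as a log2 ratio of KO to WT after 0.1 FPKM was added to both, a scale that shrinks differences of scarce genes. The low values fell on steps of about 1 read, from which effective depths of 7500000 reads in WT LSCs and 10470000 reads in KO LSCs were estimated. Intervals on ratios are 95% exact (Clopper-Pearson) intervals on the reads so estimated, and they cover counting error only. The targeted gene Stap1 had 62.0 FPKM in WT LSCs and 0.309 FPKM in KO LSCs. Of the antigens used for sorting, Kit was at 468 FPKM in WT and 30.1 FPKM in KO, and the Sca-1 gene Ly6a was at 285 and 106 FPKM. The 12 mast cell and basophil markers summed to 52392 and 5355 FPKM, with 11 at least 2-fold lower, and the 8 neutrophil primary granule markers summed to 580.2 and 4683 FPKM, with 7 at least 2-fold higher in KO LSCs. In bulk libraries fewer cells of a type and less RNA per cell cannot be told apart. The part of these cell type differences in the values of the antioxidant genes was not tested.

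Cells remove reactive oxygen species in steps. Superoxide dismutases turn superoxide into hydrogen peroxide, which catalase, the peroxiredoxins and the glutathione peroxidases then reduce. Most peroxiredoxins are recycled by thioredoxin and its NADPH-dependent reductase, PRDX6 by glutathione, and glutathione peroxidases by glutathione and glutathione reductase. Under stress KEAP1 releases the transcription factor NRF2 (gene Nfe2l2), which binds antioxidant response elements and raises many of these genes. BCR-ABL is known to increase reactive oxygen species in leukemic cells.

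Most antioxidant genes were abundant in both libraries, and most differed by less than 2-fold between them. At least 0.1 FPKM in both libraries was found for 36 of the 37 genes, and the exception was Sod3. Among these 36, 4 (11.1%) exceeded WT by 2-fold or more in KO LSCs, against 12.3% of all 12507 genes with this level. At least 2-fold lower were 3 genes (8.33%), against 22.9% of all genes. The genes that were higher were Mgst1, Gsto1, Prdx6 and Gpx8, and those that were lower were Gpx3, Gpx7 and Srxn1. At 1.5-fold, 9 genes (25%) were higher and 4 genes (11.1%) were lower, against 25.6% and 32.8% of all genes. The share of antioxidant genes that were higher was near that of all genes, and the share that were lower was smaller. Within 1.5-fold lay 63.9% of the antioxidant genes and 41.6% of all genes.

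Because most antioxidant genes are abundant, they were also set beside genes of a like level. Of the 37 members, 34 averaged 10 FPKM or more, of which 3 (8.82%) were at least 2-fold higher and 2 (5.88%) at least 2-fold lower. Among all genes of this level, 11.0% were higher and 16.4% were lower. The median log2 ratio was 0.32 over the 36 members that averaged 1 FPKM or more, and 24 of them were above 0, while the median of all 10974 such genes was -0.04. From a mean of 10 FPKM upward the medians were 0.32 for the antioxidant genes and 0.12 for all genes. The ratio of the libraries varied with transcript length: the median log2 ratio was 0.48 over genes whose longest transcript was under 1500 bases and -0.79 over genes with 5000 bases or more. The antioxidant genes have somewhat short transcripts, with a median longest transcript of 2475 bases against 3219 bases for expressed genes. After a correction for longest transcript and GC content their median was 0.19, and that of all genes from 10 FPKM upward was 0.07. With median transcript length in its place the median of the antioxidant genes was 0.31. Scaling the libraries to an equal FPKM total would raise log2 ratios by 0.10, and slightly less for scarce genes.

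**Figure D1:**
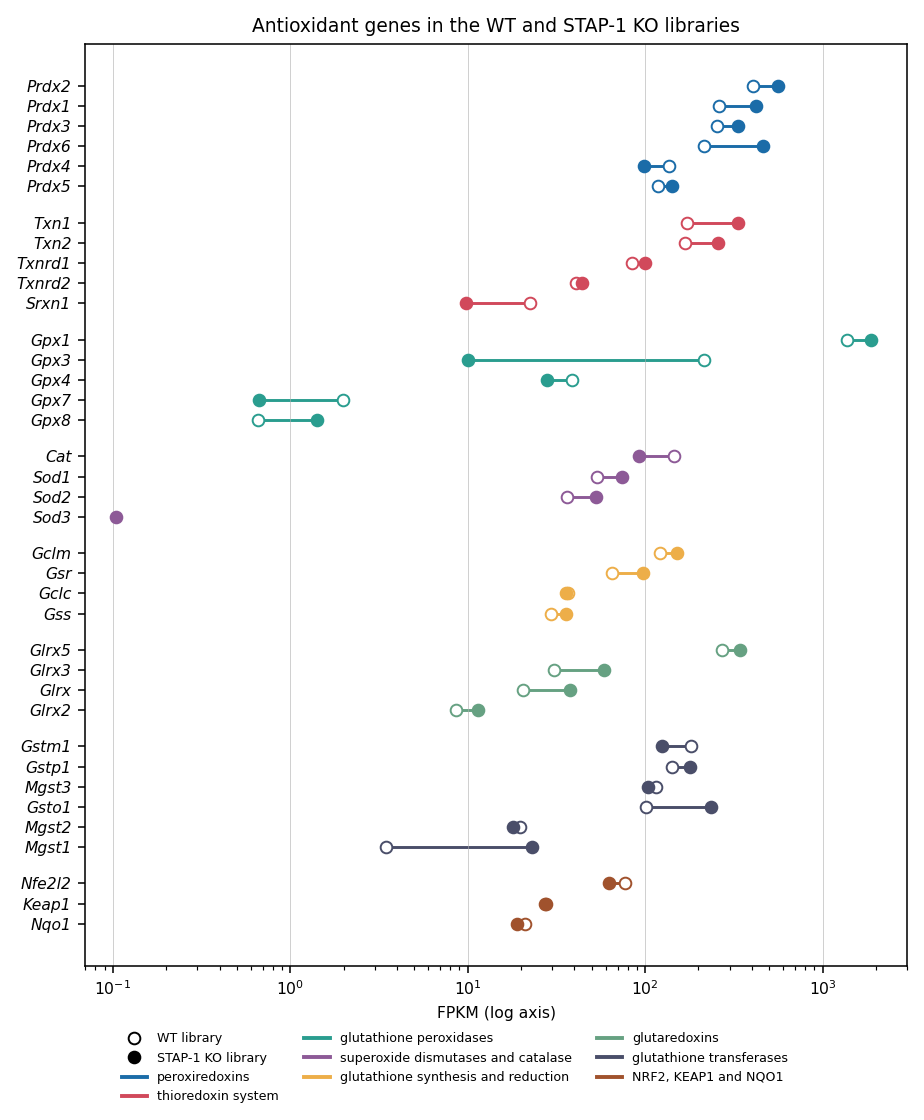
FPKM (log axis) of the 37 antioxidant genes in WT LSCs (open circles) and the STAP-1 KO library (filled circles), grouped by family in colour and ordered by WT level, with a line joining the libraries. Sod3 was listed at 0 FPKM in WT LSCs and has no open circle; the longest lines are those of Gpx3 (216 to 9.998 FPKM) and Mgst1 (3.45 to 23.0 FPKM).

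**Figure D2:**
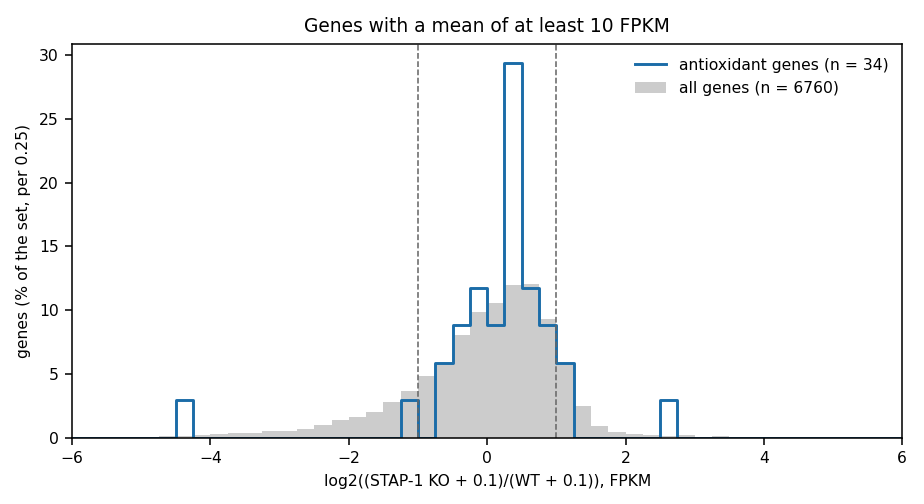
Percentage of genes per 0.25 of log2((STAP-1 KO + 0.1)/(WT + 0.1)) among genes averaging 10 FPKM or more, as bars for all genes and as a line for the 34 antioxidant genes, with dashed lines at 2-fold and genes beyond -6 or 6 not drawn. Most antioxidant genes lie between the dashed lines, with Gpx3 far to the left and Mgst1 far to the right.

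The 6 peroxiredoxins, which reduce hydrogen peroxide with a reactive cysteine, summed to 1391 FPKM in WT LSCs and 2024 FPKM in KO LSCs. Prdx6, whose product is the 1-cysteine member that also repairs oxidised phospholipids, was the peroxiredoxin with the largest ratio. It had 214 FPKM in WT LSCs and 461 FPKM in KO LSCs and was 2.16-fold higher (95% counting interval from 2.08 to 2.24). It lies on chromosome 1 of GRCm38 (chr1:161240112-161251219, minus strand), and the near copy Prdx6b was listed at 0 FPKM in both libraries. The other cytosolic peroxiredoxins had smaller ratios. Prdx1 had 262 and 424 FPKM, and Prdx2, which is abundant in red cells, had 407 and 563 FPKM. Prdx3 of the mitochondrial matrix had 255 and 334 FPKM, and Prdx5, which is found in mitochondria, peroxisomes and cytosol, had 118 and 142 FPKM. Prdx4, the form of the endoplasmic reticulum, ran the other way, with 136 FPKM in WT LSCs and 98.7 FPKM in KO LSCs. The median log2 ratio of the 6 genes was 0.43, of which 0.13 was left after the correction for longest transcript and GC content. Prdx1 then had a log2 ratio of 0.13 in place of 0.70, Prdx2 of 0.12 in place of 0.47, Prdx3 of -0.08, Prdx4 of -1.08 and Prdx6 of 0.94. An exon of Prdx2 overlaps Junb on the opposite strand by 173 bases, and the reads of the pair cannot be told apart in a library without strand.

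The thioredoxin system, which returns electrons to oxidised peroxiredoxins, had larger ratios for its thioredoxins than for their reductases as deposited, an order that the correction for length did not keep. Txn1, the cytosolic thioredoxin, had 173 FPKM in WT LSCs and 335 FPKM in KO LSCs, a ratio of 1.93. Txn2, its mitochondrial counterpart, had 168 and 259 FPKM, a ratio of 1.54. The selenoprotein reductases differed less. Txnrd1 had 84.3 and 99.4 FPKM, and the mitochondrial Txnrd2 had 40.8 and 44.1 FPKM. The level of Txn1 relative to Txn2 was 1.03 in WT LSCs and 1.29 in KO LSCs, and that of Txnrd1 relative to Txnrd2 was 2.07 and 2.25. These ratios within a library do not depend on how the libraries were scaled. After the correction for longest transcript and GC content the log2 ratios were 0.33 for Txn1, 0.38 for Txn2, 0.34 for Txnrd1 and 0.17 for Txnrd2. With median transcript length in its place they were 0.76, 0.46, 0.52 and 0.02.

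Srxn1 stood apart from the rest of this system. Its product, sulfiredoxin, repairs peroxiredoxins whose cysteine has been overoxidised, and the gene is a classical NRF2 target. It had 22.5 FPKM in WT LSCs and 9.77 FPKM in KO LSCs and was 2.30-fold lower (95% counting interval from 1.97 to 2.69). The level of Prdx1 relative to Srxn1 was 11.6 in WT LSCs and 43.4 in KO LSCs. Srxn1 lies on chromosome 2 (chr2:152105516-152111376, plus strand). It was among the genes at least 2-fold lower also after both corrections for length, with log2 ratios of -1.13 and -1.47.

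The glutathione peroxidases, which reduce peroxides with glutathione or, for some members, with protein thiols, differed most among themselves. Gpx1, the main cytosolic selenoenzyme, was the most abundant antioxidant gene, with 1365 FPKM (rank 41 of all genes) in WT LSCs and 1866 FPKM (rank 15) in KO LSCs. It accounted for 27.2% and 28.9% of the summed FPKM of the 37 genes. Gpx4, which reduces lipid hydroperoxides in membranes and protects from ferroptosis, had 38.7 FPKM in WT LSCs and 28.2 FPKM in KO LSCs. Gpx1 and Gpx4 thus ran in opposite directions, and their ratio within a library went from 35.3 to 66.3. The endoplasmic reticulum forms were near the limit of what could be counted. Gpx7 had 1.99 and 0.665 FPKM, about 16.1 and 7.52 estimated reads, and the interval of its 2.99-fold lower level ran from 1.13 to 7.56. Gpx8 had 0.660 and 1.42 FPKM, about 4.11 and 12.4 estimated reads, and the interval of its 2.15-fold higher level ran from 0.648 to 9.10 and includes no difference.

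Gpx3 had by far the largest difference of the 37 genes. It encodes the glutathione peroxidase that is secreted into plasma. It had 216 FPKM (rank 409) in WT LSCs and 9.998 FPKM (rank 6298) in KO LSCs, 21.6-fold lower (95% counting interval from 18.3 to 25.8). Its log2 ratio of -4.42 was -4.63 after the correction for longest transcript and GC content. Gpx3 held 4.31% of the summed FPKM of the antioxidant genes in WT LSCs and 0.155% in KO LSCs. The size of this difference was of the order of those of the mast cell and basophil markers, whose log2 ratios ran from -5.60 (Tpsab1) to -0.33 (Prss34) with a median of -3.26, and their part in it was not tested. Gpx3 lies on chromosome 11 (chr11:54902453-54910377, plus strand). The 250 bases before its RefSeq start site (chr11:54902604-54902853 of GRCm38.p6, plus strand) are shown because the gene had the largest difference. Capitals would mark an antioxidant response element, and none was found by the search described with the NRF2 targets.
Gpx3: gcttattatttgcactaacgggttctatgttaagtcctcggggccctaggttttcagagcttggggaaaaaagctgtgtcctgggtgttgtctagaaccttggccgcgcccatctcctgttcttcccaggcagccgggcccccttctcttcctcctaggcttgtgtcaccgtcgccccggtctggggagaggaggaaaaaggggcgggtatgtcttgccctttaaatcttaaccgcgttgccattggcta

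Among the superoxide dismutases and catalase, the intracellular dismutases were slightly higher and catalase was lower in KO LSCs. Sod1, the copper and zinc enzyme of the cytosol, had 53.4 and 74.1 FPKM, and Sod2, the manganese enzyme of mitochondria, had 36.4 and 53.2 FPKM. The level of Sod1 relative to Sod2 was 1.47 in WT LSCs and 1.39 in KO LSCs. Their log2 ratios as deposited were 0.47 and 0.55, but they were 0.49 and 0.87 after the correction for longest transcript and 0.74 and 0.30 after that for median transcript length. Sod3, the extracellular enzyme, was listed at 0 FPKM in WT LSCs and had 0.104 FPKM, about 3.84 estimated reads, in KO LSCs. A count of 0 allows up to 0.113 FPKM for this transcript at the WT depth, and no ratio is given. Cat, which encodes the peroxisomal catalase, had 146 FPKM in WT LSCs and 92.1 FPKM in KO LSCs and was 1.58-fold lower (95% counting interval from 1.497 to 1.675). None of the 3 genes with at least 0.1 FPKM in both libraries reached 2-fold.

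The genes of glutathione synthesis and reduction differed little between the libraries, with log2 ratios from -0.03 to 0.58. Gclc, the catalytic subunit of the rate-limiting glutamate-cysteine ligase, had 36.6 FPKM in WT LSCs and 35.9 FPKM in KO LSCs. Gclm, its modifier subunit, had 122 and 151 FPKM, so that Gclm relative to Gclc went from 3.33 to 4.20. Gss, which adds glycine to complete glutathione, had 29.7 and 35.7 FPKM, and Gss and the acetyl-CoA synthetase gene Acss2 overlap on opposite strands. Gsr, the reductase that restores oxidised glutathione, had 65.1 and 97.5 FPKM, the largest ratio of the 4 at 1.498. All 4 ratios were below 2-fold, and that of Gclc changed its direction when the libraries were scaled to an equal total or to a median ratio of 1. The log2 ratio of Gclm, 0.31 as deposited, was 0.63 after the correction for longest transcript and -0.03 after that for median transcript length.

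Each of the 4 glutaredoxins, which reduce disulfides between proteins and glutathione, was higher in KO LSCs by less than 2-fold as deposited, and Glrx3 passed 2-fold (log2 ratio of 1.03) when the libraries were scaled to an equal FPKM total. Glrx3, which carries iron-sulfur clusters in the cytosol, had 30.7 and 58.5 FPKM, and Glrx, the classical cytosolic enzyme, had 20.6 and 37.7 FPKM. The mitochondrial forms had smaller ratios. Glrx5, which is needed for iron-sulfur cluster assembly and heme synthesis, had 271 and 343 FPKM, and Glrx2 had 8.63 and 11.5 FPKM. The median log2 ratio of 0.64 was the highest of the 8 families, and it was 0.61 after the correction for longest transcript and GC content.

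The glutathione transferases, which couple glutathione to electrophiles, held the member with the largest ratio in the other direction. Mgst1, a microsomal transferase with peroxidase activity, had 3.45 FPKM in WT LSCs and 23.0 FPKM in KO LSCs, about 24.7 and 231 estimated reads. It was 6.67-fold higher (95% counting interval from 4.35 to 10.4), and it was the member at least 4-fold higher. Its log2 ratio of 2.70 was 2.12 after the correction for longest transcript and GC content, the remaining member above 1 under that setting. The 8 neutrophil primary granule markers had log2 ratios from 0.63 (Gfi1) to 3.47 (Ms4a3) with a median of 2.93, and their part in the level of Mgst1 was not tested. The relatives of Mgst1 did not share its difference. Mgst2 had 19.6 and 18.1 FPKM and Mgst3 had 115 and 103 FPKM, both within 1.5-fold. Mgst1 lies on chromosome 6 (chr6:138140316-138156755, plus strand). The 250 bases before the first of its RefSeq start sites (chr6:138140277-138140526, plus strand) are shown with a match to the antioxidant response element in capitals, on the minus strand and 56 bases before the start.
Mgst1: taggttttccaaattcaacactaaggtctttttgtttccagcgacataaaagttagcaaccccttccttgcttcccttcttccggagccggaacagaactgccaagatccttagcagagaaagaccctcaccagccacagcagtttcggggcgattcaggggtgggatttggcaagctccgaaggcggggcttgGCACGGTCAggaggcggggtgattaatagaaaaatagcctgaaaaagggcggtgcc

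The cytosolic transferases ran in different directions. Gsto1, an omega class enzyme that acts as a thiol transferase and dehydroascorbate reductase, had 101 FPKM in WT LSCs and 237 FPKM in KO LSCs. It was 2.34-fold higher (95% counting interval from 2.15 to 2.54) and lies on chromosome 19 (chr19:47854970-47864790, plus strand). Its log2 ratio of 1.22 was 0.74 after the correction for longest transcript and 1.07 after that for median transcript length. Gstp1, the pi class enzyme, had 141 and 180 FPKM, and its near-identical neighbour Gstp2 was listed at 0 FPKM in both libraries, so that reads of the pair may have been assigned to Gstp1. Gstm1, the mu class enzyme, had 181.7 and 125.4 FPKM and was 1.45-fold lower, and its relative Gstm2 had 0.318 and 0.342 FPKM. The median log2 ratio of the 6 transferases was 0.12, and it was -0.12 after the correction for longest transcript and GC content, so that the sign of the median depended on the correction.

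**Figure D3:**
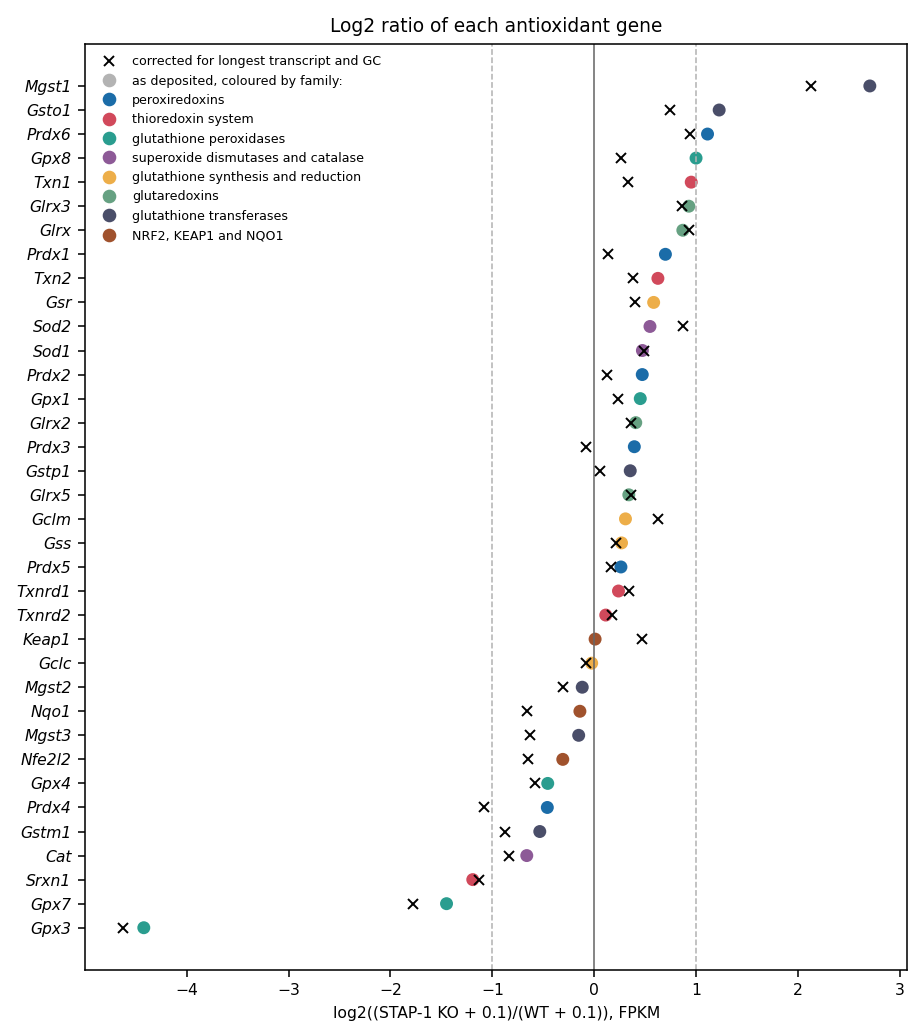
Log2((STAP-1 KO + 0.1)/(WT + 0.1)) of 36 antioxidant genes in order, as dots coloured by family, with crosses for the values after correction for longest transcript and GC content and dashed lines at 2-fold. Mgst1 is the only gene whose cross lies above 1, and the crosses of Gpx3, Gpx7, Srxn1 and Prdx4 lie below -1; Sod3 is left out because it was listed at 0 FPKM in WT LSCs.

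Nfe2l2, Keap1 and Nqo1 each lay within 1.5-fold between the libraries as deposited. Nfe2l2 had 77.4 FPKM in WT LSCs and 62.4 FPKM in KO LSCs, and Keap1, which marks NRF2 for degradation, had 27.4 and 27.5 FPKM. The classical target Nqo1, a quinone reductase, had 20.94 and 18.98 FPKM. After the correction for longest transcript and GC content the log2 ratios were -0.65 for Nfe2l2, 0.47 for Keap1 and -0.66 for Nqo1, and the median of these 3 genes was -0.65 in place of -0.14. With median transcript length they were -0.32, 0.65 and -0.24. Keap1 was thus above its deposited log2 ratio of 0.01 under both corrections, and the values of Nfe2l2 and Nqo1 depended on which correction was used. The activity of NRF2 is set mainly by the stability of its protein, which these data do not measure.

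The antioxidant response element was searched in the RefSeq promoters (GRCm38.p6, 250 bases before to 50 after each start site) as TGACNNNGC on both strands. Of the 33 members with a promoter in the table, 7 (21.2%) had a match in at least 1 promoter, against 14% of all 27025 genes. Beside Mgst1 these were Gclm, Prdx1, Sod1, Nfe2l2, Txnrd1 and Srxn1, and the match of Srxn1 lay after the start site. The windows of the other 5 are shown, with 15 bases on either side where the 250 bases before the start allow, to give the matched letters in their context. Capitals mark the match, and that of Prdx1 also holds the AP-1 motif TGANTCA. The windows are chr3:122245408-122245446 (plus strand) for Gclm, chr4:116685451-116685489 (plus) for Prdx1, chr16:90220691-90220729 (plus) for Sod1, chr2:75704880-75704913 (minus) for Nfe2l2 and chr10:82859099-82859137 (plus) for Txnrd1.
Gclm: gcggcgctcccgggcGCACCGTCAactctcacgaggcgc
Prdx1: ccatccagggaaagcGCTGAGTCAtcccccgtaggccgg
Sod1: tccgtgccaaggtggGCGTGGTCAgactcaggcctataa
Nfe2l2: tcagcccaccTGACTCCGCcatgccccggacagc
Txnrd1: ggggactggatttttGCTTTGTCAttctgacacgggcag
The log2 ratios of these 7 genes ran from -1.19 for Srxn1 to 2.70 for Mgst1. Those of Gclm, Prdx1, Sod1 and Txnrd1 lay between 0.24 and 0.70 as deposited. This range did not hold for Prdx1, Gclm and Sod1 under at least 1 of the corrections given above. A match describes these letters only and is not evidence of binding.

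Some members were also listed as mitochondrial, of the endoplasmic reticulum or secreted. The cytosolic members and Prdx5, which has several compartments, were among those not placed. The 6 members listed as mitochondrial (Prdx3, Txn2, Txnrd2, Sod2, Glrx2 and Glrx5) were all higher in KO LSCs by less than 2-fold. Their log2 ratios ran from 0.11 to 0.62, and they summed to 779.9 and 1045 FPKM. Their median of 0.40 was near the 0.32 of all members, of which 24 of 36 were above 0. After the correction for longest transcript and GC content Prdx3 was no longer above 0, and the counting interval of the ratio of Txnrd2, from 0.988 to 1.18, includes no difference. Of the 3 members listed under the endoplasmic reticulum, Prdx4 and Gpx7 were lower and the scarce Gpx8 was higher. The microsomal Mgst1, Mgst2 and Mgst3, also of the endoplasmic reticulum, were not on this list. Mgst1 was 6.67-fold higher, and Mgst2 and Mgst3 were within 1.5-fold. Of the secreted enzymes, Gpx3 was lower and Sod3 was at the limit of detection.

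The order of the antioxidant genes by level was largely shared by the libraries. Spearman's rank correlation of the 37 genes between the libraries was 0.87, which describes 1 pair of libraries with shared gene lengths and base composition, and it was 0.85 over all genes averaging 1 FPKM or more. Among the 1000 highest genes of a library were 16 members in WT LSCs and 13 in KO LSCs, with 12 in both. Together the 37 genes summed to 5010 FPKM (0.772% of the total) in WT LSCs and 6464 FPKM (1.07%) in KO LSCs. Gpx1 with Prdx1, Prdx2, Prdx3 and Prdx6 made up 49.9% and 56.5% of these sums.

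Other genes of the same pathways were described from lists. Of 21 other NRF2 target genes, 7 were at least 2-fold lower and none was at least 2-fold higher in KO LSCs, against 22.9% and 12.3% of all genes. The median log2 ratio was -0.41 over the 19 that averaged 1 FPKM or more. It was -0.59 and -0.44 after the corrections for longest and for median transcript length. Me1, which makes NADPH from malate, had 28.8 and 3.26 FPKM, and Sqstm1, the p62 adaptor that binds KEAP1, had 1050.2 and 238 FPKM. Hmox1, heme oxygenase 1, had 30.1 and 8.80 FPKM. Of the members, the NRF2 target Srxn1 was 2.30-fold lower, while Nqo1, Gclc, Gclm and Txnrd1 lay within 1.5-fold as deposited. After the correction for longest transcript and GC content Nqo1 and Gclm had log2 ratios of -0.66 and 0.63. Whether the other NRF2 targets differ from these members was not tested.

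Another list held 27 genes, most with a thioredoxin fold or methionine sulfoxide reductase activity. Of these, 3 were at least 2-fold higher and 2 at least 2-fold lower, against 12.3% and 22.9% of all genes. The median log2 ratio of 0.21 was 0 and 0.10 after the corrections for longest and for median transcript length. Of the 3 that were higher, Msrb2 had a log2 ratio of 1.06 as deposited but 0.59 and 0.77 after these corrections. Txnip, 1 of the 2 that were lower, binds and inhibits thioredoxin but has no thioredoxin fold. It had 109 FPKM in WT LSCs and 33.9 FPKM in KO LSCs, against the higher level of Txn1 itself. Sepw1, selenoprotein W, had 549 and 133 FPKM, and Msra, which repairs oxidised methionine, had 21.2 and 51.3 FPKM. Of the 22 other glutathione transferase and related genes found, 15 had the level needed for a call, and of these 3 were higher and 2 lower, against the same shares, with a median of 0.25 over 13 genes that was 0 and 0.18 after the corrections. Gstz1, among the 3, went from 1.12 to 0.92 after the correction for longest transcript. Hpgds, the hematopoietic prostaglandin D synthase of mast cells and a sigma class transferase, had 10.1 and 1.82 FPKM, and Gstcd had 3.54 and 12.3 FPKM. Of 14 genes of glutathione turnover 13 had this level, and of these 1 was higher and 2 were lower, again beside 12.3% and 22.9% of all genes. Slc3a2, the heavy chain of amino acid transporters that include the cystine carrier, had 368 and 163 FPKM, while Slc7a11, the light chain of that carrier, had 0.384 and 0.551 FPKM.

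**Figure D4:**
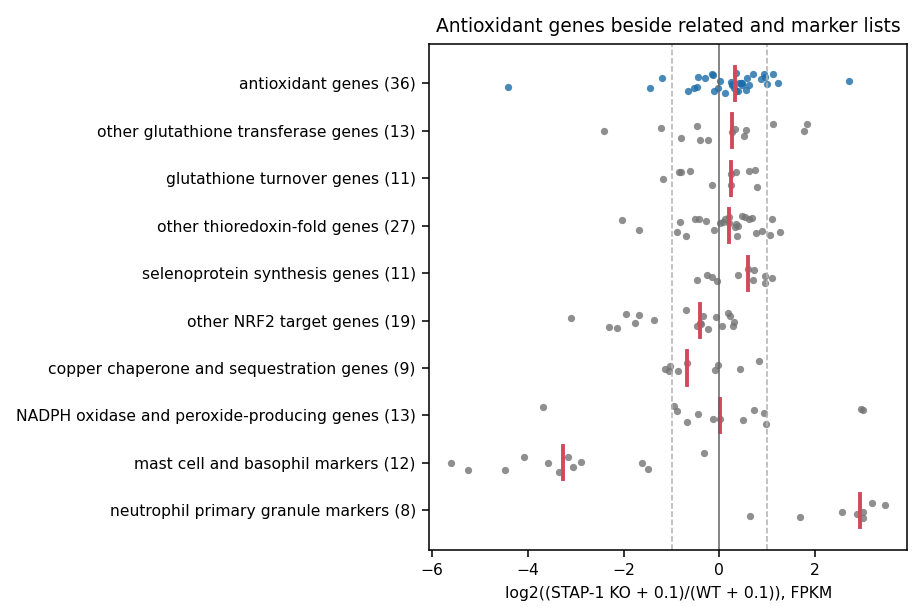
Log2((STAP-1 KO + 0.1)/(WT + 0.1)) of genes averaging 1 FPKM or more, 1 dot per gene with random vertical spread, for the antioxidant genes (blue), related lists and cell type markers (grey), with the number of genes in brackets, medians as red bars and dashed lines at 2-fold. The antioxidant genes lie around a median of 0.32, while the mast cell and basophil markers have a median of -3.26 and the neutrophil primary granule markers a median of 2.93. The lists labelled as copper genes and as thioredoxin-fold genes also hold some genes of other kinds.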

How the data were processed

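RNA-seq was measured in 1 WT and 1 STAP-1 KO library, made with SMART-Seq v4 and Nextera XT kits. Reads of 75 bases were aligned by the authors (mm10; the submitters' processing notes name TopHat2 2.0.13, Bowtie2 2.2.3, SAMtools 0.1.19 and Cufflinks 2.2.1), and normalised FPKM values were deposited. The methods of the study name Cuffnorm 2.2.1 for the calculation of FPKM. The annotation and the method of scaling between libraries are not given in the sources used here.

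Ratios were taken from the deposited FPKM in Python 3.11.15 (scipy 1.17.1, pandas 2.3.3, numpy 2.4.6). A gene was called higher or lower when the libraries differed 2-fold or more and neither was under 0.1 FPKM. Log2 ratios used a pseudocount of 0.1 FPKM, and medians were taken over genes averaging 1 FPKM or more. Symbols were matched to GENCODE M21 (20919 as written, 1911 through an older symbol, 454 unmatched). The correction subtracted the median log2 ratio of 20 bins of transcript length and then of 20 bins of GC content. Depths were estimated from values below 0.3 FPKM in genes with 1 transcript, of which 48.8% (WT) and 49.0% (STAP-1 KO) lay within 0.01 of a whole read. Estimated reads assume the longest transcript. The steps were tested on simulated data.

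The members and lists were chosen with earlier results of these data known. The genes named by rule are all members, Stap1, near copies and, in each list, up to 4 genes (2 for cell type markers) whose log2 ratios were farthest from 0 when 1 FPKM was added. Slc7a11, Ccs, Cyba, Cybb, Ncf4, Prss34, Gfi1, Vwf, Mecom, Hlf and the genes overlapping members were named after their values were seen.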

Additional observations from a re-analysis of the deposited data

How the results depend on the processing

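With 1 library per genotype no setting shows the spread between replicates, and leaving out a replicate could not be done. No paired analysis was possible because each group has 1 library. The median log2 ratio of the antioxidant genes, 0.32, was 0.43 (0.4259) with the libraries scaled to an equal FPKM total and 0.19 (0.1927) after correction for longest transcript and GC content. Under equal totals the medians of the peroxiredoxins, the thioredoxin system, and the superoxide dismutases with catalase were 0.5353, 0.3409 and 0.5755. After the longest-transcript correction the peroxiredoxins were at 0.1265, the thioredoxin system at 0.328, and the glutathione transferases reversed from 0.12 to -0.1234. A correction by median transcript length, chosen after seeing the data, gave 0.3144, 0.4634 and 0.301 for the peroxiredoxins, the thioredoxin system, and the dismutases with catalase. The 4 members that were higher became 9 at 1.5-fold, 6 under equal totals (with Txn1 and Glrx3), 3 when 1 FPKM was required in both libraries, 1 at 4-fold, 1 after the longest-transcript correction and 2 after that by median length. The 3 that were lower became 4 at 1.5-fold, 2 when 1 FPKM was required in both libraries, 1 at 4-fold and 4 after the longest-transcript correction (with Prdx4). These corrections assume that genes of 1 length and GC class have the same median in both libraries. Of 36 members, 1 changed direction under each scaling (Gclc), 1 under the longest-transcript correction (Prdx3), 1 under the median-length correction (Gclm) and 0 with 1 FPKM added. Depth limits Gpx7, Gpx8 and Sod3, each with under 20 estimated reads in both libraries.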

Other observations

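Genes around the antioxidant enzymes were described in the same way. Of all genes with at least 0.1 FPKM in both libraries, the level needed for a call, 12.3% were at least 2-fold higher and 22.9% at least 2-fold lower in KO LSCs. Of 11 selenoprotein synthesis genes, which supply selenocysteine for glutathione peroxidases and thioredoxin reductases, 1 was at least 2-fold higher and none was at least 2-fold lower, with a median log2 ratio of 0.60 (0.53 after the correction for longest transcript and GC content). Sephs2, which makes selenophosphate, had 59.3 FPKM in WT LSCs and 115 FPKM in KO LSCs, and Trnau1ap had 43.5 and 84.4 FPKM. The ribosomal protein gene Rpl30, whose product also binds selenocysteine insertion elements, had 80.9 and 173 FPKM. It was the gene past 2-fold, and its log2 ratio of 1.10 was 0.54 and 0.60 after the corrections for longest and for median transcript length. Another list of 10 genes held copper chaperones and metallothioneins beside genes that do not handle copper, among them Oxr1 and Sesn2. Of these 10, 9 had the level needed, with 3 at least 2-fold lower and none at least 2-fold higher. The median log2 ratio of the list, -0.67, was -0.32 and -0.15 after these corrections, and it does not describe copper genes alone. The 3 lower genes were the metallothionein genes Mt1 (1046.6 and 478 FPKM) and Mt2 (200.1 and 98.0 FPKM) and Sesn2. Sesn2 had 19.7 and 9.41 FPKM, with a log2 ratio of -1.06 that was -0.60 and -0.09 after the corrections. Ccs, which loads copper into SOD1, had 67.7 and 63.2 FPKM.

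Genes that produce or use peroxide differed in both directions. Of 18 found, 14 had the level needed for a call, and of these 3 were at least 2-fold higher and 1 at least 2-fold lower, against 12.3% and 22.9% of all genes. Mpo, the myeloperoxidase of primary granules, had 248 FPKM in WT LSCs and 1973 FPKM in KO LSCs, and Epx of eosinophils had 1.02 and 8.62 FPKM. Maob, a monoamine oxidase that releases hydrogen peroxide, had 234 and 18.2 FPKM. The NADPH oxidase subunits Cyba (441 and 276 FPKM) and Ncf4 (36.9 and 37.3 FPKM) were within 2-fold, whereas the catalytic subunit gene Cybb, at 2.26 and 4.56 FPKM, was the remaining gene past 2-fold.

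Marker lists of other cell types were summed in each library, and their members at least 2-fold higher or lower in KO LSCs were counted, beside 12.3% and 22.9% of all genes. The 8 neutrophil late granule markers summed to 418 FPKM in WT LSCs and 186 FPKM in KO LSCs, with 0 higher and 6 lower. The 6 eosinophil markers found summed to 10.8 and 79.0 FPKM, with 3 higher and 1 lower of 5 with the level needed. The 8 erythroid markers summed to 2804 and 1369 FPKM, with 1 higher and 4 lower. Among them the alpha globin genes ran in opposite directions, with Hba-a2 at 772.5 and 15.9 FPKM and Hba-a1 at 34.8 and 379.8 FPKM, and reads of these near-identical copies cannot be assigned with certainty. The 7 megakaryocyte markers summed to 201 and 135 FPKM, with 1 higher and 2 lower. The 8 monocyte and macrophage markers summed to 198 and 152 FPKM, with 2 higher and 3 lower of 7 with the level needed. The 8 lymphocyte markers summed to 6.78 and 24.7 FPKM, with 3 higher and 1 lower of 5 with the level needed, and the 9 stem cell markers to 1094 and 389 FPKM, with 1 higher and 4 lower. These counts are as deposited, and some of the genes were within 2-fold after the correction for longest transcript and GC content. Among them were the megakaryocyte marker Vwf (log2 ratio of -1.15, then 0.15) and the stem cell markers Mecom (-1.33, then -0.80) and Hlf (-0.80, then -0.27).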
